A study of Mus musculus with 6 samples.

Results

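The interferon response genes described here are 32 genes that cells are known to switch on, or to use, when they sense type I or type II interferon or foreign nucleic acid. They were chosen by symbol, and all 32 were found among the 51826 gene symbols counted. Their levels were compared between GFP-positive (GFPpos) and GFP-negative (GFPneg) mammary basal cells of pubertal mice. All mice were of strain C57B6/N and genotype SMAcreERT2/N1ICD, in which a smooth muscle actin promoter drives a Cre that tamoxifen activates, and a further allele carries N1ICD, the active intracellular fragment of the Notch1 receptor. A single tamoxifen dose was given at postnatal day 21, with isolation after 72 hours, at day 24. Cells of both groups were sorted from the same 3 pools of 2 to 3 mice, giving 3 RNA-seq libraries a group and 6 in all. GFPneg cells therefore came from mice of the same genotype and had met the same tamoxifen, and no library came from mice without the N1ICD allele. The gene that encodes GFP is not given in the labels, and the mice of a pool cannot be told apart.

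Interferons are secreted proteins that bind receptors on the cell surface. The receptors activate JAK kinases, which phosphorylate STAT proteins. STAT2 and IRF9 act in a complex that binds the interferon-stimulated response element (ISRE), and pairs of STAT proteins bind the gamma-activated sequence (GAS). Their targets include sensors of viral RNA, enzymes that block viral replication, chemokines, and the transcription factors of the pathway itself, and many of them are known to be read at a low level in the absence of infection.

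The 300-base windows around the transcription start (250 bases before it and 50 from it on, RefSeq, GRCm38.p6) hold letters of these elements in many members. The 250 bases before the start are shown for 5 members, the 4 with the highest level per kilobase and Ifit1. Of the 32 members, 23 had such a window. The letters GAAANNGAAA, the core of the ISRE, were searched on both strands and occurred in 13 of the 23 members (56.5%), against 3.99% of the 27025 genes with a window. Over single windows of 300 bases the share was 48.1% of the 27 member windows and 3.44% of all 32851. The palindromic letters TTCNNNGAA, the core of the GAS, occurred in 5 of 23 members (21.7%), against 9.55% of genes, and in 18.5% of the member windows against 8.30% of all windows. The capitals mark these letters. Each sequence is the gene's own strand, on which a copy of the other strand reads TTTC on both sides of 2 bases, as in Stat2 and Ifit1, and positions count from the first transcribed base as 0. Such a match is a description of the letters and not a measured binding site.
Stat2: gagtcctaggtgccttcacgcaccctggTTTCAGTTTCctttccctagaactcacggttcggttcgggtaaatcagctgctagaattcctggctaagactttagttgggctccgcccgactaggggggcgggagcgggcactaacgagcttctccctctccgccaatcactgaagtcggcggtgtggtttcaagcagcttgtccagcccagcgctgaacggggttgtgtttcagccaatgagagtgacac
Irf1: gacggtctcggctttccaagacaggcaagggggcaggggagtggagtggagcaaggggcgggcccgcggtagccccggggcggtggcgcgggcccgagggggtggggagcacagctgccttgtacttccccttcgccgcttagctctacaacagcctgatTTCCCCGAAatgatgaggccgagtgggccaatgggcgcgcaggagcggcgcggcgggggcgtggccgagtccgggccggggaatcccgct
Ifit1: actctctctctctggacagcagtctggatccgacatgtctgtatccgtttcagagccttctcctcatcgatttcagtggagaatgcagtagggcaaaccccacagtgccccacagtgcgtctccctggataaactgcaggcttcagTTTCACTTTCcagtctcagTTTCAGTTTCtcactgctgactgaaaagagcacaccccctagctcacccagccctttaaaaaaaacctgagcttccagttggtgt
Cxcl10: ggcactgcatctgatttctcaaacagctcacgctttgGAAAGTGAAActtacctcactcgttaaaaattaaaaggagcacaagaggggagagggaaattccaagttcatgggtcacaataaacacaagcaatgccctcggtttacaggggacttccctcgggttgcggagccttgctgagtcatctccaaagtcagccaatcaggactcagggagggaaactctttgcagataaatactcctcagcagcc
Bst2: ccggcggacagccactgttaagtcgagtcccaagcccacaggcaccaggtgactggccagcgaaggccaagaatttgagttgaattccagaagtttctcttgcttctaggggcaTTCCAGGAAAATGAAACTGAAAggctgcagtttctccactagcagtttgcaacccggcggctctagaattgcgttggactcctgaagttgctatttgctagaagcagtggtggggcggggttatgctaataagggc

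The printed stretches lie at chr10:128270248-128270497 (plus strand) for Stat2, chr11:53769764-53770013 (plus) for Irf1, chr19:34640639-34640888 (plus) for Ifit1, chr5:92348890-92349139 (minus) for Cxcl10 and chr8:71537473-71537722 (minus) for Bst2. Ifit1 holds the ISRE core at 2 places, from -104 to -95 and from -85 to -76. Bst2 holds 2 overlapping copies, from -130 to -121 and from -124 to -115, and the first of them overlaps a GAS core from -136 to -128. Cxcl10 has a single ISRE core from -213 to -204 and Stat2 one from -222 to -213. Irf1 has a GAS core from -90 to -82 and no ISRE core in its window.

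The libraries held between 9912610 and 16043492 gene counts, except GFPneg replicate 1 with 611465. In that library 69.2% of the counts lay in 5 abundant noncoding features, against 22.7% to 34.7% in the others, and 1 count stood for 3.28 CPM (counts scaled to a common library size), against 0.0513 to 0.0911 CPM elsewhere. It held no count of 16 of the 32 members, for each of which the floor of 3 counts is 9.84 CPM and the 95% exact upper limit of 0 counts is 12.1 CPM, while the other libraries missed 0 to 4 members. The label of basal cells was checked on 8 markers (among them Krt5, Krt14 and Trp63), whose summed level was 6178 to 6925 CPM in GFPpos and 8338 to 12999 CPM in GFPneg libraries. Leukocyte markers were close to absent, with a summed level over 7 genes of 0 to 0.719 CPM in GFPneg and 1.27 to 14.6 CPM in GFPpos libraries, and 0 counts of Cd52 in any. The 8 macrophage markers summed to 5.07 to 12.8 CPM in GFPpos and 8.42 to 17.9 CPM in GFPneg libraries, mostly from Cd68 and Mrc1, and Csf1r, Adgre1, C1qb and C1qc had 0 counts in all 6. Luminal cell markers summed to 673 to 1017 CPM over 8 genes in GFPpos and 351 to 719 CPM in GFPneg libraries. Endothelial markers were not absent: the sum over 8 genes was 1151, 762 and 555 CPM in GFPneg replicates 1, 2 and 3, and 797, 688 and 1998 CPM in GFPpos replicates 1, 2 and 3. In bulk RNA, fewer cells of a type and less RNA per cell cannot be told apart.

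No member passed the test between GFPpos and GFPneg cells. Of the 26 members with enough counts to be tested, 12 had positive and 14 negative log2 fold changes (18 and 8 when scaled by library size only). Among all tested genes 57.5% were positive, and 66.8% when scaled by library size only. Of the 26 members 0 passed in edgeR's quasi-likelihood test with Benjamini-Hochberg adjustment over all 13873 genes tested (threshold 0.05). In that test 9 genes passed, 0.0649% of those tested, so that few genes of any kind were called. The replicate block, a term for the pool of mice, raised this to 61 genes (0.44%) and called 0 members, and without GFPneg replicate 1 edgeR called 92 genes (0.602%) and 0 of 31 members. At an unadjusted p below 0.05 there were 3 members, 1 higher and 2 lower, against 5.26% of all genes. The tested members had a median log2 fold change of -0.01, and all tested genes one of 0.15. The member median was 0.76 without GFPneg replicate 2 and -0.27 without GFPneg replicate 1, with 0.32 and 0.04 for all genes. DESeq2 called 1 member lower (Ifit1), as did edgeR with no filter on low counts, and edgeR with the replicate block but without replicate 1 called 2 higher (Parp14 and Cxcl10). The shares of all genes called in those directions were 0.697%, 0.954% and 2.52%.

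**Figure D1:**
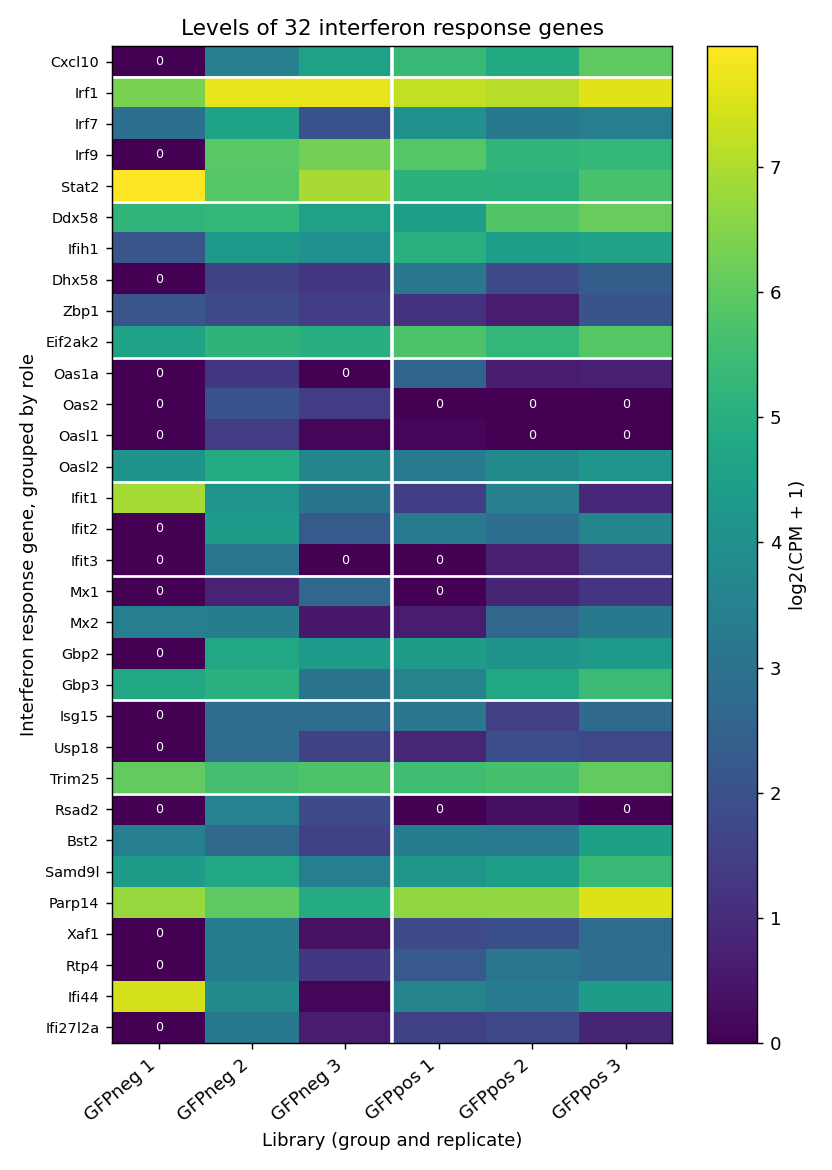
Level of each of the 32 members in each library, as log2(CPM + 1), with members grouped by role and white lines between the roles; a printed 0 marks a library with no read of the gene. Irf1, Parp14, Stat2 and Trim25 are read in every library, 16 members have no read in GFPneg replicate 1, and Ifit1, Stat2 and Ifi44 are at their highest there.

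The differences between the fractions ran in opposite directions in different pools. In replicate 2, 18 of the 26 tested members were lower in GFPpos cells and the median log2 ratio of CPM + 1 was -0.61, while over all tested genes it was -0.03. In replicate 3, 20 of the 26 were higher in GFPpos cells, with a median of 0.95 against 0.05 for all genes. Replicate 1 had 14 higher and 12 lower, with a median of 0.86 beside 1.34 for all genes, and its ratios ran from -5.40 (Ifit1) to 5.87 (Irf9). Irf9 had 0 counts in GFPneg replicate 1, so that the 5.87 depends on the added 1 CPM, which is below that library's floor of 9.84 CPM. With 5 CPM added instead, the replicate 1 medians were 0.34 for the members and 0.66 for all genes. Of the 26 tested members, 4 were higher in GFPpos cells of all 3 pairs and 2 were lower in all 3. Among all tested genes the shares were 21.5% and 8.07%, so that by these counts the members did not stand out.

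**Figure D2:**
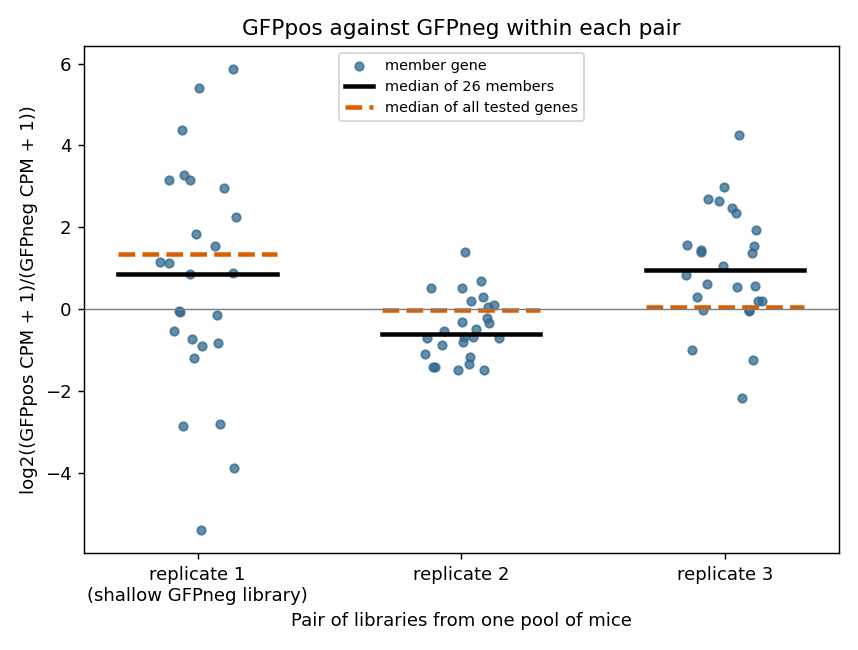
Log2 ratio of GFPpos to GFPneg (CPM + 1) in each pair of libraries, 1 point a tested member, with the median of the 26 members (solid line) and of all 13873 tested genes (dashed line). The member median lies at -0.61 in replicate 2 and at 0.95 in replicate 3, while the dashed line is close to 0 in both.

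The GFPneg libraries of replicates 2 and 3 differed from each other by as much. Of the 26 tested members, 22 were higher in GFPneg replicate 2 than in GFPneg replicate 3, with a median log2 ratio of 1.10 against 0.08 over all genes. GFPpos replicate 3 exceeded GFPpos replicate 2 in 22 members (median log2 ratio of replicate 2 over replicate 3 -0.55, all genes -0.00084). GFPpos replicates 1 and 2 lay closer, with 14 members higher in the first and a median of 0.07. These are single libraries, so that no test was made of them. Over the 5 deep libraries the SD of log2(CPM + 1) had a median of 0.74 among the tested members, from 0.21 (Trim25) to 1.67 (Ifi44), and of 0.58 among all tested genes. The biological coefficient of variation that edgeR estimated from all 6 libraries had a median of 0.667 among the tested members and 0.671 among all tested genes, so that by this measure the members did not stand out.

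Among the 5 deep libraries, 15 of the 32 members were highest in GFPneg replicate 2, 10 in GFPpos replicate 3, 4 in GFPpos replicate 1, 3 in GFPneg replicate 3 and 0 in GFPpos replicate 2. Over the 26 tested members the counts of GFPneg replicate 2 and GFPpos replicate 3 were 11 and 10, while 12.9% and 22% of all tested genes had their maximum there. GFPpos replicate 1, GFPneg replicate 3 and GFPpos replicate 2 led in 3, 2 and 0 tested members, against 21.9%, 27.9% and 15.2% of all tested genes. The ISRE core occurred in 4 of the 10 members with a window that were highest in GFPneg replicate 2 (Gbp2, Ifit1, Ifit3 and Rsad2) and in 5 of the 8 that were highest in GFPpos replicate 3 (Bst2, Cxcl10, Ddx58, Eif2ak2 and Gbp3). It occurred in 3 of 3 highest in GFPpos replicate 1 and in 1 of 2 highest in GFPneg replicate 3, beside 56.5% over all 23 members with a window. GFPpos replicate 3 was also the library with the most endothelial marker reads (1998 CPM, against 555 to 1151 CPM) and pericyte marker reads (649 CPM over 7 genes, against 42.6 to 239 CPM). All 8 endothelial markers were read in each of the 5 deep libraries. The part of these cells in the member levels was not tested.

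Irf1, which encodes a factor induced by interferon gamma, had the highest level per kilobase of exon of all members, at 40.6 CPM per kilobase as a mean of the 6 libraries. Stat2 (15.3), Cxcl10 (12.2), Bst2 (10.6) and Parp14 (10.4) followed, also in CPM per kilobase, and their ranges over the libraries overlapped (5.55 to 42.1, 0 to 27.8, 2.12 to 24.4 and 3.07 to 19.9). Without the shallow library the mean of Irf1 was 44.6 CPM per kilobase, and the next were Cxcl10 with 14.6 and Bst2 with 10.6. Stat2, whose 42.1 was that of the shallow library, fell to 9.96, below Parp14 (10.3) and Irf9 (10.03). The lowest were Oas2 (0.173) and Oasl1 (0.113), on the same scale.

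Stat2 (chromosome 10, 128270559 to 128292849, mm10) encodes the STAT that is particular to type I and type III interferon signals. Its level was 33.4, 32.9 and 50.5 CPM in GFPpos replicates 1, 2 and 3, and 249, 57.9 and 121 CPM in GFPneg replicates 1, 2 and 3. All 3 GFPpos libraries were below all 3 GFPneg libraries, though GFPpos replicate 3 and GFPneg replicate 2 lay close, and 3.63% of all tested genes had groups apart in this direction. A summed level of 8 fibroblast markers also lay lower in all 3 GFPpos libraries (346 to 443 CPM, against 777 to 1703 CPM), as did that of the basal markers, and their part in the level of Stat2 was not tested. The Stat2 means were 38.9 ± 9.98 and 143 ± 97.5 CPM (SD, n = 3), and the log2 fold change of -1.83 (SE 0.55) did not pass edgeR's threshold (adjusted p = 0.546). Without GFPneg replicate 1 the log2 fold change was -1.17 (SE 0.36, edgeR's adjusted p = 0.246). It was negative in all 17 fits made, between -2.22 and -1.02, and the lowest adjusted p among them was 0.0719.

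Irf9 and Irf7 complete the transcription factors of type I signalling, IRF9 as the DNA-binding partner of STAT2 and IRF7 as the factor that amplifies interferon production. Irf9 stood at 57.4, 36.3 and 38.7 CPM in GFPpos replicates 1, 2 and 3, and at 0, 59.9 and 78.0 CPM in GFPneg replicates 1, 2 and 3. Its log2 fold change was -0.15 with 6 libraries and -0.62 (SE 0.33, edgeR's adjusted p = 0.650) without the shallow library that held no count. Irf7 was highest in GFPneg replicate 2 (23.8 CPM) and lowest in GFPneg replicate 3 (3.01 CPM), with 8.25 to 15.5 CPM in GFPpos libraries. Irf1 (chromosome 11, 53770014 to 53778374) was read at 151, 138 and 196 CPM in GFPpos and 82.0, 201 and 201 CPM in GFPneg replicates 1, 2 and 3. Its means were 162 ± 30.5 and 161 ± 68.8 CPM, and its log2 fold change was -0.02 (SE 0.43). That value changed sign in 8 of the other 16 fits, over a range from -0.30 to 0.27.

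Cxcl10, which encodes a chemokine that draws T cells, had GFPpos levels above all GFPneg levels (chromosome 5, 92346638 to 92348889). It was read at 41.1, 27.9 and 62.7 CPM in GFPpos replicates 1, 2 and 3, and at 0, 10.01 and 22.6 CPM in GFPneg replicates 1, 2 and 3. The 95% exact upper limit of this 0 is 12.1 CPM. Means were 43.9 ± 17.5 and 10.9 ± 11.3 CPM (SD, n = 3), a log2 fold change of 1.80 (SE 0.80, edgeR's adjusted p = 0.899). Without GFPneg replicate 1 it was 1.46 (SE 0.49, adjusted p = 0.301). In the replicate block without replicate 1, which rests on 2 pairs and few residual degrees of freedom, Cxcl10 was called higher (log2 1.496, edgeR's adjusted p = 0.0364). Cxcl9, its neighbour on chromosome 5 and a chemokine for the same receptor, is described with the other pathway genes. Pericyte markers summed to 173 to 649 CPM in GFPpos and 42.6 to 144 CPM in GFPneg libraries. Leukocyte markers summed to more in all 3 GFPpos libraries than in GFPneg replicates 2 and 3, though to at most 14.6 CPM. GFPneg replicate 1 held no count of them, but 1 count there stands for 3.28 CPM, above the 1.27 CPM of GFPpos replicate 1. The part of pericyte and leukocyte reads in the levels of Cxcl10 and of the sensors was not tested.

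Of the 5 sensors of viral nucleic acid, 4 had positive fold changes and 0 were called. Ifih1, Dhx58 and Eif2ak2 had all 3 GFPpos libraries above all 3 GFPneg libraries, and with Cxcl10 they were the only members to do so, 4 of 26 tested, where 9.53% of all tested genes had groups apart in this direction. Ifih1 encodes MDA5, a sensor of long double-stranded RNA. It stood at 32.3, 21.1 and 23.2 CPM in GFPpos and 3.28, 18.2 and 15.4 CPM in GFPneg replicates 1, 2 and 3. Its log2 fold change was 0.91 (SE 0.74, edgeR's adjusted p = 1.000), and the 3.28 CPM of the shallow library is a single count. Eif2ak2 encodes PKR, a kinase that stops translation on binding double-stranded RNA. Its level was 52.1, 38.1 and 57.8 CPM in GFPpos and 23.0, 35.3 and 31.8 CPM in GFPneg replicates 1, 2 and 3 (log2 fold change 0.69, SE 0.56, edgeR's adjusted p = 1.000). Dhx58, which encodes the regulatory sensor LGP2, was low throughout, at 2.65 to 7.88 CPM in GFPpos and 0 to 1.95 CPM in GFPneg libraries, the 0 being that of the shallow library, whose floor of 9.84 CPM lies above the GFPpos levels. Ddx58, which encodes RIG-I, overlapped between the groups (21.2 to 67.9 CPM in GFPpos and 22.8 to 38.4 CPM in GFPneg). Zbp1, a sensor of left-handed nucleic acid, was at most 3.28 CPM in each library, and summed to 82 counts in GFPpos and 68 in GFPneg cells.

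**Figure D3:**
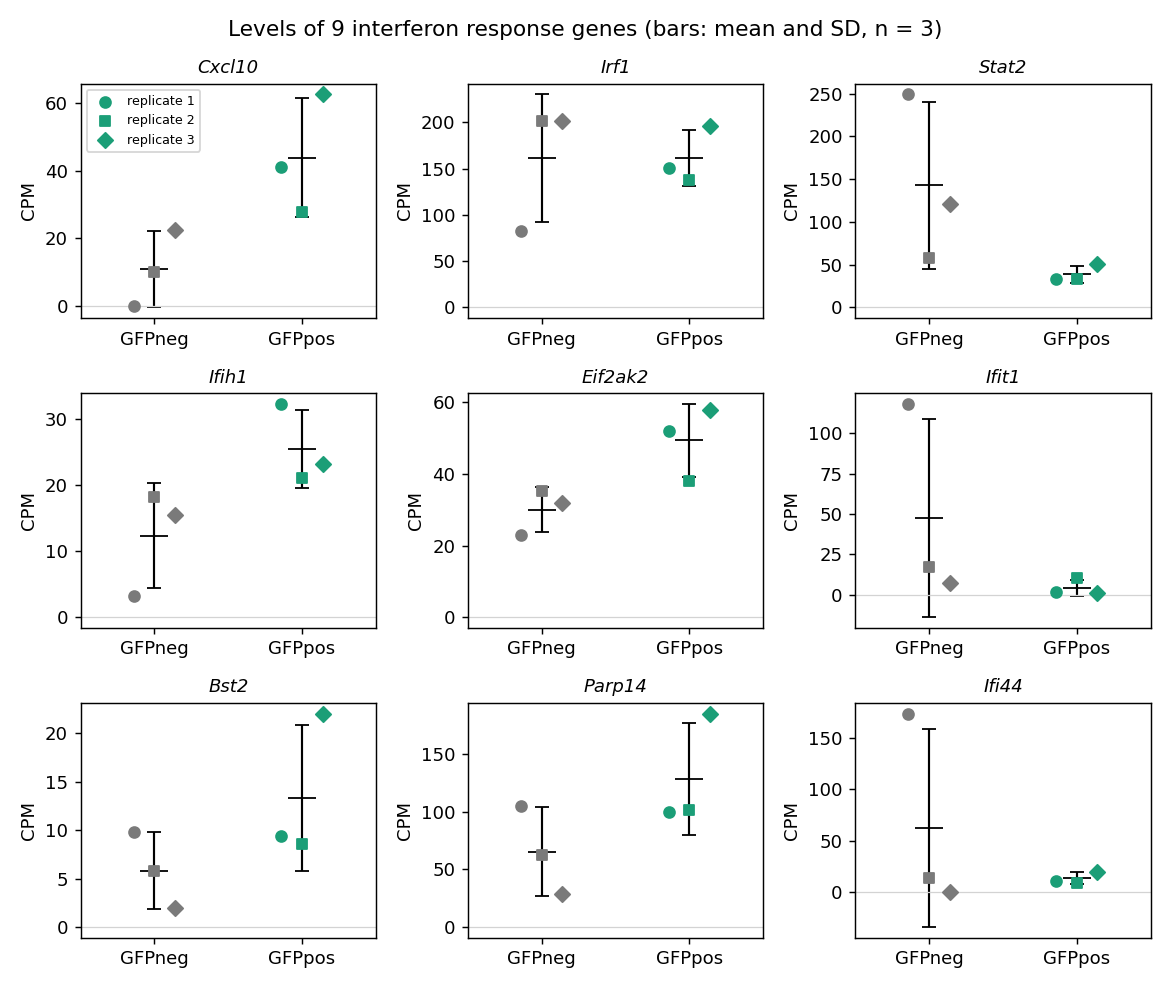
CPM of 9 members in each library, with marker shapes for the replicate number and horizontal bars with whiskers for the mean and SD of 3 libraries. In Cxcl10, Ifih1 and Eif2ak2 the GFPpos points lie above all GFPneg points, in Stat2 below them, and the high GFPneg means of Ifit1 and Ifi44 come from replicate 1 (118 and 174 CPM).

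The Ifit family, which encodes proteins that bind viral RNA, held the lowest fold change of the 26 members tested with 6 libraries, that of Ifit1, whose size rested on the shallow library. Ifit1 (chromosome 19, 34640871 to 34650009) stood at 1.81, 10.2 and 0.882 CPM in GFPpos and 118, 16.9 and 7.47 CPM in GFPneg replicates 1, 2 and 3. The 118 CPM come from 36 counts (95% exact Poisson interval 82.7 to 163 CPM, counting error only). GFPpos was the lower fraction in all 3 pairs, while GFPpos replicate 2 exceeded GFPneg replicate 3. The log2 fold change was -3.34 (SE 1.14, edgeR's adjusted p = 0.667), and DESeq2 (-3.54, adjusted p = 0.0487) and edgeR with no filter on low counts (-3.31, adjusted p = 0.0174) called Ifit1 lower. Without GFPneg replicate 1 it was -1.49 (SE 1.01, edgeR's adjusted p = 0.792). Its neighbours Ifit2 and Ifit3 had 0 counts in that library. Ifit2 was highest in GFPneg replicate 2 (19.6 CPM) and lay at 6.30 to 11.3 CPM in GFPpos cells and 3.74 CPM in GFPneg replicate 3. Ifit3 had 152 counts in GFPneg replicate 2 and 40 in all 5 other libraries, and 41.1% of its 75-base windows also occur in Ifit3b, so that its counts are uncertain.

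The oligoadenylate synthetase family, with enzymes that make the messenger that activates RNase L, was near the limit of detection apart from Oasl2. Oas2 had 58 and 18 counts in GFPneg replicates 2 and 3 and 0 in the other libraries. With the GFPpos group set to a floor of 3 counts, the summed counts gave a scaled ratio of 35.5 (GFPneg over GFPpos). The lower limit of the 95% exact interval was below this, at 28.2, and covers counting error alone. Without GFPneg replicate 1, the adjusted p of Oas2 was 0.361 in edgeR's test. Oasl1 had 31 counts in GFPneg replicate 2 and 2 elsewhere. Oas1a was read most in GFPpos replicate 1 (54 counts), and 47.6% of its 75-base windows occur in Oas1g as well. Oasl2 was read in each library, at 8.79, 12.7 and 17.2 CPM in GFPpos and 16.4, 28.4 and 11.5 CPM in GFPneg replicates 1, 2 and 3. The groups overlapped.

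The interferon-induced GTPases also overlapped between the groups. Gbp2, a guanylate-binding protein of the response to interferon gamma, had 16.3 to 19.7 CPM in GFPpos cells, a narrow range, and 26.5 and 18.5 CPM in GFPneg replicates 2 and 3. Gbp3, its neighbour on chromosome 3, ranged from 10.9 to 41.8 CPM in GFPpos and from 7.38 to 32.9 CPM in GFPneg cells, with the highest level in GFPpos replicate 3. Mx1, of the dynamin-like GTPases, was low and summed to 36 counts in GFPpos and 71 in GFPneg cells. Mx2, annotated as a polymorphic pseudogene in GENCODE M21, was read at 0.544 to 8.36 CPM in GFPpos and 0.456 to 9.84 CPM in GFPneg libraries.

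Isg15, the ubiquitin-like modifier, and the enzymes that handle it overlapped between the fractions. Isg15 was at 7.97, 1.87 and 5.66 CPM in GFPpos and 0, 6.26 and 5.83 CPM in GFPneg replicates 1, 2 and 3. Usp18 encodes the protease that removes ISG15 and damps the receptor. Among the 5 deep libraries it was highest in GFPneg replicate 2 (5.95 CPM) and at most 2.80 CPM in the others. It had 0 counts in the shallow library, whose floor is 9.84 CPM. Trim25, a ubiquitin ligase that activates RIG-I, had the smallest SD of log2(CPM + 1) of the tested members over the 5 deep libraries. It stood at 45.2, 48.9 and 65.5 CPM in GFPpos and 65.6, 47.6 and 53.7 CPM in GFPneg replicates 1, 2 and 3.

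Parp14, Samd9l and Bst2 were led by GFPpos replicate 3. Parp14 encodes an ADP-ribosyltransferase of antiviral and cytokine responses (chromosome 16, 35832874 to 35871544). It stood at 99.8, 101 and 185 CPM in GFPpos and 105, 62.8 and 28.6 CPM in GFPneg replicates 1, 2 and 3, so that only the shallow library made the groups overlap. That library's 105 CPM are 32 counts (interval 71.8 to 148 CPM). The log2 fold change was 1.04 (SE 0.53, edgeR's adjusted p = 1.000) with 6 libraries and 1.502 (SE 0.41, adjusted p = 0.168) without GFPneg replicate 1. In the replicate block without replicate 1 it was 1.70 (SE 0.36, edgeR's adjusted p = 0.000216), a fit on 2 pairs. Bst2, which encodes tetherin, a protein that holds budding virus at the membrane, had 9.42, 8.56 and 22.01 CPM in GFPpos and 9.84, 5.75 and 1.91 CPM in GFPneg replicates 1, 2 and 3 (log2 fold change 1.42, SE 1.00, edgeR's adjusted p = 1.000). Samd9l, a translation inhibitor, ranged from 17.7 to 40.1 CPM in GFPpos and from 9.75 to 26.6 CPM in GFPneg libraries.

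Ifi44 and Rsad2 differed widely among the GFPneg libraries. Ifi44, an interferon-induced protein of the cytoplasm, stood at 10.8, 8.95 and 19.7 CPM in GFPpos and 174, 13.0 and 0.0911 CPM in GFPneg replicates 1, 2 and 3. These GFPneg values come from 53, 253 and 1 counts. Its log2 fold change was -2.10 (SE 1.30, edgeR's adjusted p = 1.000) with 6 libraries and 1.00 (SE 1.15, adjusted p = 0.926) without GFPneg replicate 1. Rsad2, which encodes the antiviral enzyme viperin, had 207 and 28 counts in GFPneg replicates 2 and 3 and 3 counts in the 3 GFPpos libraries, all in replicate 2. The ratio of the summed counts after scaling was 110 (GFPneg over GFPpos, 95% exact interval 37.1 to 537, counting error only). Without GFPneg replicate 1, where Rsad2 could be tested, its adjusted p was 0.222 in edgeR's test. In the replicate block without replicate 1 it was 0.0564 (edgeR, log2 -6.20), and in DESeq2 it was 0.104. Xaf1, Rtp4 and Ifi27l2a had 0 counts in the shallow library, whose floor of 9.84 CPM lies above their levels elsewhere. Among the 5 deep libraries their maximum was in GFPneg replicate 2 (9.34, 9.09 and 8.32 CPM), with 0.779 to 7.70 CPM in GFPpos cells.

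**Figure D4:**
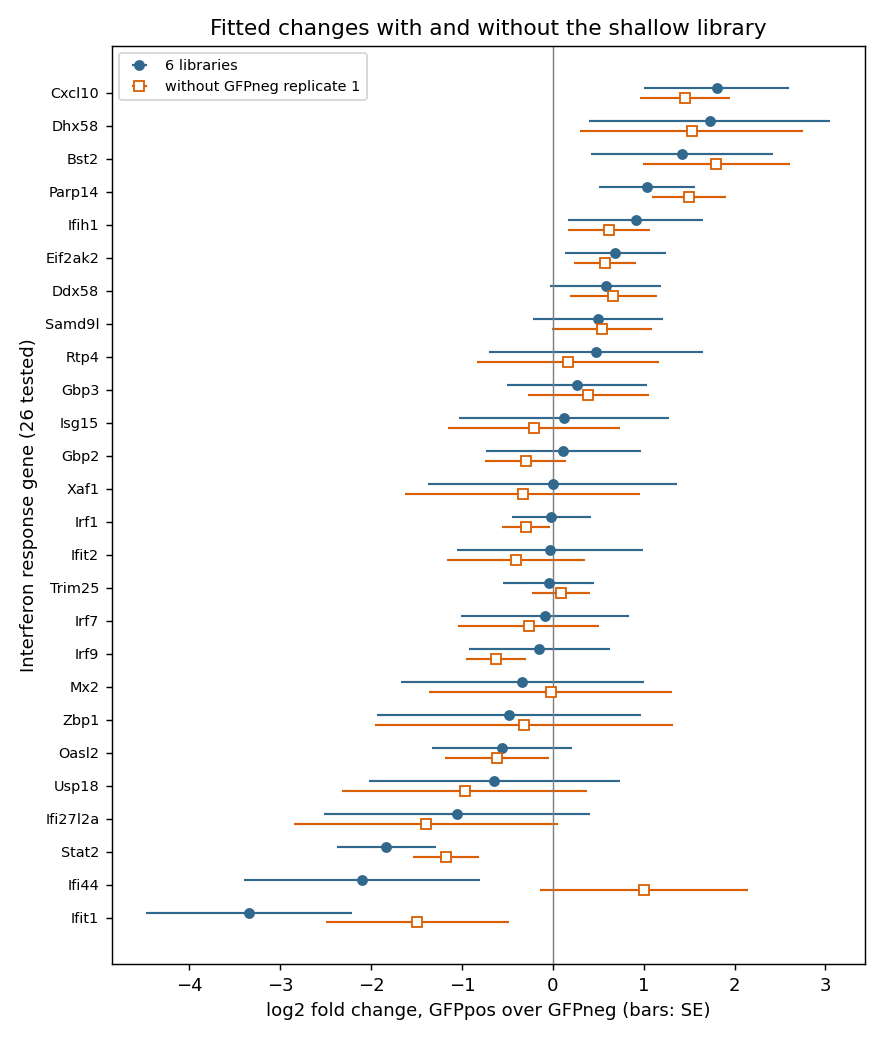
Fitted log2 fold changes (GFPpos over GFPneg, with SE) of the 26 tested members with all 6 libraries (filled circles) and without the shallow GFPneg library (open squares). Ifi44 moves from -2.10 to 1.00 and Ifit1 from -3.34 to -1.49, Stat2 stays below 0 and Cxcl10 above it.

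A list of 86 other genes of the pathway was read beside the members. Of these, 66 were tested, and 0 passed edgeR's test with 6 libraries or with the replicate block, while 2 (Jak1 and Ifi204) had an unadjusted p below 0.05. DESeq2 also called 0. All 11 interferon genes listed (Ifnb1, Ifna1, Ifna2, Ifna4, Ifna5, Ifna13, Ifne, Ifnk, Ifng, Ifnl2 and Ifnl3) had 0 counts in each library, so that none of these 11 was detectable at this depth. The receptors were read: all 6 were tested, 5 with positive fold changes. Of the signal adaptors and further sensors 8 of 12 tested were positive, of the negative regulators 5 of 9 and of the further induced genes 22 of 35, none of them past the threshold, while 57.5% of all tested genes were positive. Ifnar1, a subunit of the type I receptor, stood at 67.2, 59.1 and 75.1 CPM in GFPpos and 85.2, 48.8 and 47.4 CPM in GFPneg replicates 1, 2 and 3, and Ifngr1, of the type II receptor, at 33.7, 31.7 and 67.0 and at 42.6, 34.9 and 24.0 CPM. Ifnar2 ranged from 22.6 to 56.1 CPM in GFPpos and from 0 to 23.8 CPM in GFPneg libraries, and Ifngr2 from 15.7 to 35.7 and from 14.8 to 23.4 CPM. Ifnlr1 and Il10rb, the subunits of the type III receptor, ranged from 12.5 to 25.3 and from 3.43 to 19.6 CPM in GFPpos libraries, and from 0 to 32.3 and from 0 to 14.3 CPM in GFPneg libraries. All 6 overlapped between the groups.

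Jak1, the kinase shared by these receptors, was at 421, 359 and 643 CPM in GFPpos and 279, 224 and 293 CPM in GFPneg replicates 1, 2 and 3, with GFPpos above GFPneg throughout (log2 fold change 0.84, edgeR's adjusted p = 0.938). Jak2, the kinase of the type II receptor, was at 143, 118 and 186 against 184, 57.6 and 73.8 CPM and was called higher in the replicate block without replicate 1 (log2 1.21, edgeR's adjusted p = 0.0122). That fit, on 2 pairs, called 2.52% of all genes higher. Irf8, a factor of immune cells, was at 19.3, 14.8 and 28.7 against 0, 2.77 and 11.6 CPM (log2 fold change 1.85, edgeR's adjusted p = 1.000), and the part of the leukocyte reads given above was not tested.

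Cxcl9, a chemokine induced mainly by interferon gamma, was called or not depending on 1 library. It was read at 39.3, 38.4 and 40.3 CPM in GFPpos replicates 1, 2 and 3 and at 0.821 and 2.46 CPM in GFPneg replicates 2 and 3, but at 91.8 CPM in GFPneg replicate 1 (28 counts, interval 61.0 to 133 CPM). With 6 libraries its log2 fold change was 0.61 (edgeR's adjusted p = 1.000), and without GFPneg replicate 1 it was 4.64 (adjusted p = 0.00401, in a fit that called 0.412% of genes higher). Ifi203, a DNA-binding protein of the interferon response, was at 27.4, 18.5 and 40.7 against 9.84, 16.3 and 1.91 CPM, and was called higher in the replicate block without replicate 1 (log2 2.22, edgeR's adjusted p = 0.0425). So was Iigp1, a GTPase induced by interferon gamma (103, 85.0 and 130 against 167, 62.2 and 20.95 CPM, log2 1.55, edgeR's adjusted p = 0.00175). Both calls come from the fit on 2 pairs, in which 2.52% of all genes were called higher. Ifi204, a relative of Ifi203, had 289 CPM in GFPneg replicate 1 (88 counts) and at most 12.1 CPM elsewhere, and its log2 fold change went from -4.16 (edgeR's adjusted p = 0.720) to 0.89 without that library.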

How the data were processed

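The values the authors deposited are whole-number counts for each gene symbol, 1 table a library. The submitters' processing notes name FastQC, cutadapt, TopHat2, HTSeq and build mm10. Tool versions, the strand setting and the annotation release were not given in the sources used here. Reads in no feature (28.8% to 66.4%) or ambiguous (0.390% to 2.07%) stayed out.

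The main test was edgeR's quasi-likelihood F test (version 4.0.16, R 4.3.3) with TMM scaling, a filterByExpr filter and the group as term, adjusted by Benjamini-Hochberg. CPM used effective library sizes, with TMM factors of 1.05 to 1.22, except 0.501 in GFPneg replicate 1. SE is the unshrunk log2 fold change over the square root of F, and pair ratios added 1 CPM. Alternatives were the replicate block, DESeq2 1.42.0, other scaling, no filter, removal of 5 abundant features, and leaving out libraries or pairs.

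The members and lists were chosen with earlier results of these data known. Values in each library are given for members called in 1 of 4 fits, the 6 with the smallest p, the 4 highest per kilobase, and those of 1 direction in all pairs with at least 5 CPM, and for some others chosen after their values were seen. Of the pathway list the genes called in those fits, the 4 with the smallest p, the interferons and the receptors were named. A gene of that list is not reported here. Both fractions of a number came from the same pool of mice, per the labels, which pairs them, and their deviations from the group means correlated at -0.0155, 0.0953 and 0.0107 in replicates 1, 2 and 3. Positions and exon lengths are those of GENCODE M21 on the same assembly. In simulated data for this comparison (13873 genes) the test found 2.99% of the genes with a log2 change of 1, 25.4% with 2 and 100% with 4. The changes were planted only in genes above the median level. The simulated spread was the same for all genes, and below the median biological coefficient of variation of 0.671 estimated here. These shares can therefore overstate what the test finds among the members.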

Additional observations from a re-analysis of the deposited data

How the results depend on the processing

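With 6 libraries and edgeR, 9 of all genes were called. The replicate block gave 61, DESeq2 155, no low count filter 301 and the replicate block without replicate 1 602, and leaving out single libraries or pairs gave 3 to 92. Of the members 0 were called in 14 of the 17 fits, 1 with DESeq2, 1 with no low count filter and 2 with the replicate block without replicate 1. Of the other pathway genes 0 were called with 6 libraries, 1 with no low count filter (Ifi204), 4 with the replicate block without replicate 1, and 0 to 1 on leaving out a library or pair. Among those omissions the 92 came without GFPneg replicate 1 and the 3 without GFPpos replicate 3. The cause of these differences was not tested.

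Over the fits, 17 of the 32 members had log2 fold changes of both signs. Among the 16 genes given in each library by rule, 5 changed sign. Irf1 was 0.076 with the replicate block, 0.11 with library size only, and between -0.30 and 0.27 without single libraries or pairs. Ifi44 was 2.67 with the replicate block without replicate 1 and otherwise between -3.18 and 1.13 on leaving out libraries. In the same way Ifi204 lay between -5.82 and 0.89, Iigp1 between -0.25 and 1.38 and Cxcl9 between -0.15 and 4.64. Library size only moved the median of all genes from 0.15 to 0.31, and the member median less that of all genes was -0.16 with TMM factors and -0.18 with library size only. The pair medians moved by less than their SD of 0.88 under the other pseudocounts, library size only and removal of the abundant features. That SD is a wide margin, because the pair medians themselves differ in sign. Under these settings the median ran from 0.34 to 1.28 in replicate 1, from -0.70 to -0.45 in replicate 2 and from 0.63 to 1.09 in replicate 3. The depth of GFPneg replicate 1 limits each member without a count there to a floor of 9.84 CPM.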
